A study of Mus with 7 samples.

Results

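The 8 genes described here encode cytosolic sensors of viral RNA and proteins that work with them: Ddx58, Ifih1, Dhx58, Mavs, Eif2ak2, Trim25, Zbp1 and Zc3hav1. They were chosen by symbol from the 31053 genes of the count tables, and all 8 were found. Levels were measured by single-cell RNA-seq in fetal liver-derived macrophages (FLMs), self-renewing primary cells cultured from the livers of C57BL/6J mouse fetuses. Docosahexaenoic acid (DHA), an omega-3 fatty acid, was given before lipopolysaccharide (LPS), the bacterial ligand of Toll-like receptor 4, and the comparisons ask how DHA and LPS alter transcript levels in these cells.

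All FLMs were wild-type and were grown with 30 ng/mL GM-CSF. Con cells were grown in 10% FBS without BSA and were collected at the point where the other cells changed medium. The cells of the other 6 libraries were kept for 24 h in 0.25% FBS, either with 25 µM DHA complexed to 8.3 µM BSA (DHA) or with 8.3 µM BSA alone (Veh). They then received 20 ng/mL LPS for 1 or 4 h or no LPS, which gives Veh.LPS.0, DHA.LPS.0, Veh.LPS.1, DHA.LPS.1, Veh.LPS.4 and DHA.LPS.4. FLMs are a heterogeneous primary culture and may differ from the macrophages of a tissue, and the libraries describe them without other cells around them.

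RIG-I (Ddx58) and MDA5 (Ifih1) are helicases that bind double-stranded or uncapped viral RNA in the cytosol and then assemble the mitochondrial adapter MAVS, which recruits the kinases that activate IRF3, IRF7 and NF-κB and so type I interferon. LGP2 (Dhx58) is the family member without signalling domains, and TRIM25 is a ubiquitin ligase that acts on RIG-I and also binds the zinc-finger antiviral protein ZAP (Zc3hav1). PKR (Eif2ak2) stops translation when it binds double-stranded RNA, and ZBP1 senses Z-form nucleic acid and can start necroptosis. In macrophages, LPS reaches interferon through Toll-like receptor 4 and TRIF, and most of these genes are themselves interferon-stimulated.

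Each condition was a single library, so no difference below has a replicate check, no test between conditions was possible, and all intervals are 95% exact intervals that cover counting error only. After the limits of more than 20000 UMIs (unique molecular identifiers, 1 per captured molecule), at least 2000 genes and under 20% mitochondrial UMIs, 11640 of 31151 barcodes remained as cells, 692 to 3073 per library. The kept cells summed to between 22045775 and 125716982 UMIs per library, with medians of 29369 to 56239 UMIs per cell. The mitochondrial limit removed more of the DHA libraries: 12.1% to 18.5% of their barcodes were kept, against 40.6% to 62.5% in the other 4 libraries. Of the kept barcodes, 16 occurred in more than 1 library. All 9 macrophage markers were detected in every library, the least frequent being Csf1r in 53.2% of the cells of 1 library. Of 19 markers of other cell types, 10 had no UMI in any library, and their summed level was 0.914 to 7.80 CPM. The most frequent, S100a8, was found in 0.287% to 9.39% of the cells of a library. It was highest in DHA.LPS.4, followed by 7.53% in Con and 5.54% in Veh.LPS.4, and its part in the results was not tested. S100a9, usually expressed together with S100a8, was among the 10 genes at 0, and whether those zeros are measured absences could not be checked. Other cell types were therefore not excluded, and no second cell type was identified in which free RNA could be measured.

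Levels are given as CPM, the UMIs of a gene per 1000000 UMIs summed over the kept cells of a library. A gene was called higher or lower by size when its CPM ratio exceeded 1.5-fold and at least 25% of cells in one or both libraries held a UMI. CPM was compared between libraries for the same gene and not between genes.

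Ddx58 encodes RIG-I, the receptor for short RNA with a 5′ triphosphate. The gene lies on chromosome 4 from 40203777 to 40239825 (mm10). Its level was 7.69 CPM in Con, 23.4 CPM in Veh.LPS.0, 25.6 CPM in DHA.LPS.0, 14.2 CPM in Veh.LPS.1, 23.2 CPM in DHA.LPS.1, 43.1 CPM in Veh.LPS.4 and finally 16.6 CPM in DHA.LPS.4. Veh.LPS.4 was thus the highest library and Con the lowest, with a 5.60-fold range, and the intervals of Veh.LPS.0 overlapped those of both DHA.LPS.0 and DHA.LPS.1. With vehicle the level was lower at 1 h of LPS than without LPS and higher at 4 h, whereas with DHA it was close to its starting level at 1 h and lower at 4 h.

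Ifih1 encodes MDA5, the receptor for long double-stranded RNA (chromosome 2, 62595618 to 62646255). It had 2.05 CPM in Con, 4.92 CPM in Veh.LPS.0, 8.28 CPM in DHA.LPS.0, 5.48 CPM in Veh.LPS.1, 9.71 CPM in DHA.LPS.1, 31.4 CPM in Veh.LPS.4 and finally 22 CPM in DHA.LPS.4. Both 4 h libraries stood above all earlier ones, and the 15.3-fold range was the widest of the 8 genes. The levels at 0 and 1 h overlapped in their intervals within each treatment.

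Dhx58 encodes LGP2, which binds RNA and tunes the activity of MDA5 and RIG-I (chromosome 11, 100694884 to 100704271). Its level was 1.18 CPM in Con, 4.98 CPM in Veh.LPS.0, 6.71 CPM in DHA.LPS.0, 3.08 CPM in Veh.LPS.1, 5.53 CPM in DHA.LPS.1, 7.94 CPM in Veh.LPS.4 and finally 1.996 CPM in DHA.LPS.4. In DHA.LPS.4 only Con was lower. The intervals of the highest neighbours, Veh.LPS.4 and DHA.LPS.0, overlapped.

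Mavs encodes the adapter on mitochondria and peroxisomes through which RIG-I and MDA5 signal (chromosome 2, 131234063 to 131248025). It had 11.4 CPM in Con, 11.6 CPM in Veh.LPS.0, 11.6 CPM in DHA.LPS.0, 8.86 CPM in Veh.LPS.1, 8.17 CPM in DHA.LPS.1, 4.57 CPM in Veh.LPS.4 and finally 5.58 CPM in DHA.LPS.4. The libraries lay at 3 levels by LPS time, and within each level the intervals of Veh and DHA overlapped. Mavs was the only one of the 8 genes whose lowest library was Veh.LPS.4.

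Trim25 encodes the ubiquitin ligase that modifies RIG-I and serves as a cofactor of ZAP (chromosome 11, 88999403 to 89020294). Its level was 55.3 CPM in Con, 51.9 CPM in Veh.LPS.0, 69.0 CPM in DHA.LPS.0, 67.9 CPM in Veh.LPS.1, 124 CPM in DHA.LPS.1, 142 CPM in Veh.LPS.4 and finally 108 CPM in DHA.LPS.4. DHA.LPS.1 lay nearer to the 4 h libraries than to Veh.LPS.1. Only DHA.LPS.0 and Veh.LPS.1 were neighbours with overlapping intervals.

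Eif2ak2 encodes PKR, the kinase that phosphorylates the translation factor eIF2α (chromosome 17, 78850504 to 78882572). It had 93.3 CPM in Con, 121 CPM in Veh.LPS.0, 116 CPM in DHA.LPS.0, 101 CPM in Veh.LPS.1, 127 CPM in DHA.LPS.1, 210 CPM in Veh.LPS.4 and finally 117 CPM in DHA.LPS.4. Veh.LPS.4 stood alone, and the other 6 libraries lay between 93.3 and 127 CPM. The interval of DHA.LPS.4 overlapped those of both libraries without LPS in reduced serum. The RefSeq pseudogene Gm6548 lies within the Eif2ak2 span and had no row of its own, so reads from it could not be separated.

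Zbp1 encodes the Z-nucleic-acid sensor that recruits the kinase RIPK3 (chromosome 2, 173206612 to 173218959). Its level was 0.302 CPM in Con, 0.962 CPM in Veh.LPS.0, 2.08 CPM in DHA.LPS.0, 0.677 CPM in Veh.LPS.1, 1.67 CPM in DHA.LPS.1, 4.52 CPM in Veh.LPS.4 and finally 1.22 CPM in DHA.LPS.4. These values rest on few molecules, 27 UMIs in DHA.LPS.4 and 265 UMIs in Veh.LPS.4. Veh.LPS.4 and Con stood apart at the ends, and the neighbours in between overlapped in their intervals. Zbp1 reached at most 13.5% of the cells of a library and so passed the share limit in no comparison.

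Zc3hav1 encodes ZAP, which binds CpG-rich viral RNA and directs its decay (chromosome 6, 38305286 to 38355352). It had 51.1 CPM in Con, 57.9 CPM in Veh.LPS.0, 59.0 CPM in DHA.LPS.0, 92.7 CPM in Veh.LPS.1, 128 CPM in DHA.LPS.1, 110 CPM in Veh.LPS.4 and finally 92.7 CPM in DHA.LPS.4. Scaled by the library total, it was the only one of the 8 genes with its highest level at 1 h of LPS, in DHA.LPS.1. This depends on the scaling. With edgeR's TMM factors in place of the library total (1.02 for DHA.LPS.1 and 0.819 for Veh.LPS.4), Zc3hav1 was higher in Veh.LPS.4 than in DHA.LPS.1. DHA.LPS.4 and Veh.LPS.1 could not be told apart by their intervals.

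**Figure D1:**
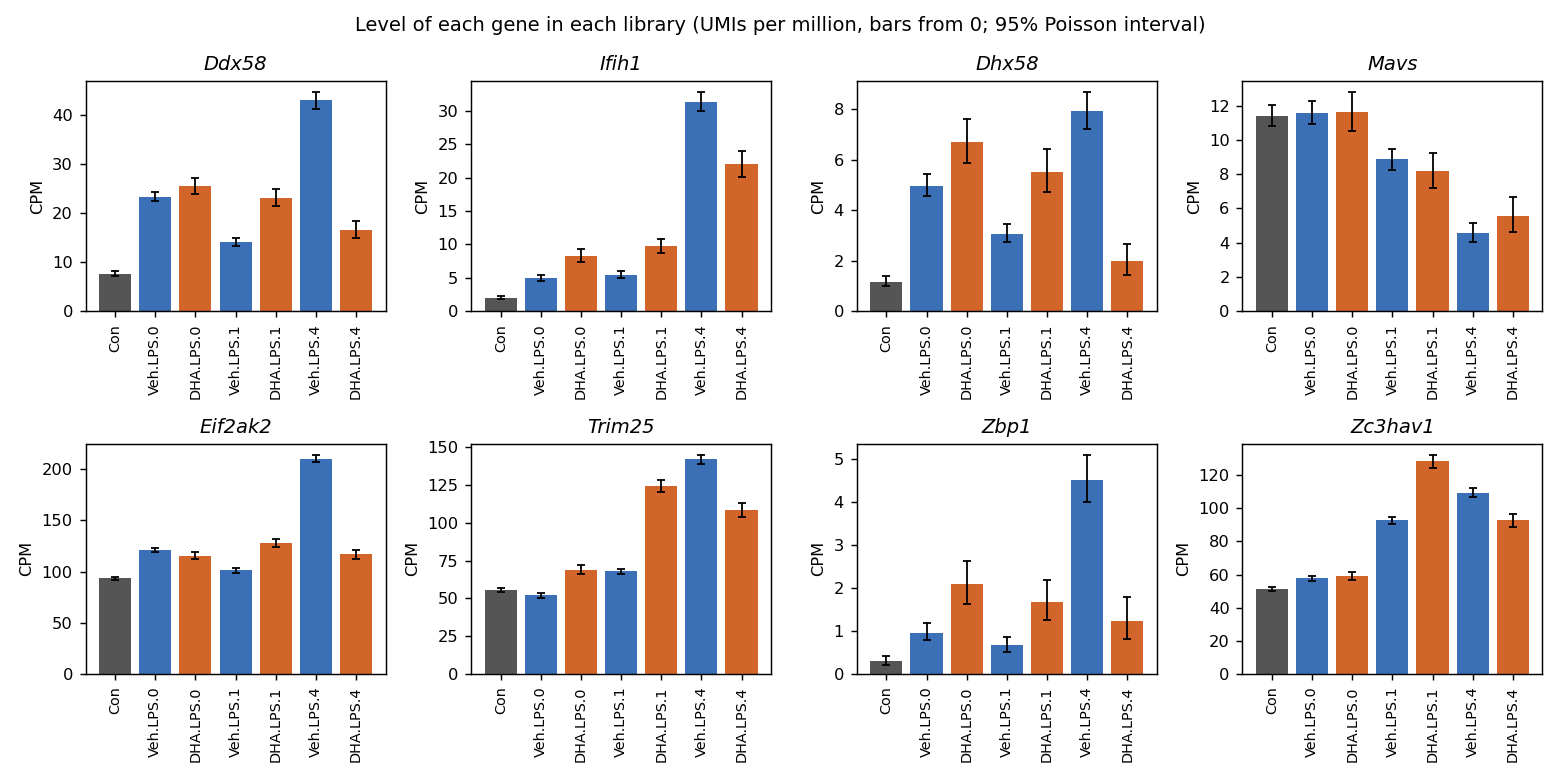
Level of each of the 8 genes in each of the 7 libraries, in CPM (vertical axes from 0 and scaled per gene). Bars are the summed cells of 1 library (grey Con, blue vehicle, orange DHA), and error bars are 95% exact Poisson intervals of counting error. Veh.LPS.4 is the highest library for 6 genes (Ddx58, Ifih1, Dhx58, Eif2ak2, Trim25 and Zbp1), and Mavs is lowest there.

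The change from 10% FBS to reduced serum with vehicle went with higher levels of the 3 receptors. It also brought in BSA and 24 h more of culture, and these cannot be told apart here. Veh.LPS.0 exceeded Con 3.04-fold for Ddx58 (interval 2.82 to 3.28), 4.23-fold for Dhx58 (3.51 to 5.12) and 2.40-fold for Ifih1 (2.06 to 2.80). Zbp1 was 3.18-fold higher on 95 against 38 UMIs. Trim25, Mavs, Zc3hav1 and Eif2ak2 had ratios between 0.939 and 1.30. Past both limits, 1 of the 8 genes, Ddx58, was higher and 0 were lower, against a background of 9.31% of 8252 tested genes higher and 7.76% lower. The other 3 receptor or sensor genes with ratios above 1.5 were under the share limit of 25% of cells.

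With vehicle, 1 h of LPS moved the genes in both directions. Zc3hav1 was 1.60-fold higher in Veh.LPS.1 than in Veh.LPS.0 (interval 1.55 to 1.66), and Ddx58 was lower, at a ratio of 0.606 (0.566 to 0.648). The remaining receptors had ratios of 0.618 for Dhx58 and 1.11 for Ifih1, the latter with an interval of 0.982 to 1.26 that includes 1. Past the limits were 1 gene higher and 1 lower, where the background was 4.15% of 8089 genes higher and 4.24% lower. Over all genes, 49.5% of calls were higher with the library total, 61.3% with edgeR's TMM factors and 86.3% with sctransform-corrected counts.

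After 4 h of LPS with vehicle, 6 of the 8 genes were higher than in Veh.LPS.0 past the limits and 1 was lower, against 10.2% of 8385 tested genes higher and 38.3% lower. Ifih1 had the largest ratio, 6.37 (interval 5.77 to 7.06), followed among the 6 by Trim25 at 2.73 (2.64 to 2.83), Zc3hav1 at 1.89, Ddx58 at 1.84, Eif2ak2 at 1.74 and Dhx58 at 1.59 (1.40 to 1.81). Zbp1 had a ratio of 4.70 (3.71 to 6.01) below the share limit. Ifih1 (48.3% against 14.3% of cells) and Dhx58 (28.3% against 16.6%) passed that limit only through Veh.LPS.4, where they were high. Mavs was the lower gene, at 0.394 (0.344 to 0.451), and passed only through Veh.LPS.0 (35.3% against 22.3%). The median log2 ratio of the 8 genes was 0.90 and that of all tested genes was -0.36. With edgeR's TMM factors in place of the library total, the median of all tested genes shifted to 0.07 and the share of calls that were higher went from 21.1% to 50.6%. With TMM factors all 8 genes kept their direction, with log2 ratios of 1.31 for Ddx58 and 1.88 for Trim25. With sctransform-corrected counts the share of calls that were higher was 33.3%, and Ddx58 was at 0.61 and Trim25 at 1.21.

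Between 1 and 4 h of LPS with vehicle, 5 genes were higher (Ddx58, Ifih1, Dhx58, Eif2ak2 and Trim25) and 0 lower past the limits, against 7.98% of 8010 genes higher and 29.3% lower. Ifih1 and Dhx58 again passed the share limit only through Veh.LPS.4. In this step 21.4% of all calls were higher with the library total, 50.7% with TMM factors and 38.8% with sctransform-corrected counts. With the library total, Zc3hav1 had a ratio of 1.18 for this step (1.14 to 1.22), after most of its difference from Veh.LPS.0 was already present at 1 h. With TMM factors its log2 ratio was 0.77 for the first hour and 0.58 for this step. Ddx58 turned from its low level at 1 h to a 3.04-fold higher one at 4 h (2.85 to 3.25).

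With DHA, the first hour of LPS showed Trim25 at 1.80-fold (interval 1.71 to 1.90) and Zc3hav1 at 2.18-fold (2.06 to 2.30) of their levels in DHA.LPS.0. These were the 2 genes higher past the limits, with 0 lower, against 4.66% of 8474 genes higher and 4.97% lower. The share of all calls that were higher was 48.4% with the library total, 64.0% with TMM factors and 85.6% with sctransform-corrected counts. The intervals of the ratios of Ddx58, Ifih1, Dhx58 and Zbp1 each included 1.

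At 4 h of LPS with DHA, 3 genes were higher than in DHA.LPS.0 past the limits (Ifih1, Trim25 and Zc3hav1) and 2 were lower (Ddx58 and Mavs), against 9.64% of 8477 genes higher and 33.6% lower. Of the 8 genes 6 passed the share limit, so the 2 lower ones are close to the share over all genes. Ifih1 passed it only through DHA.LPS.4 and Mavs only through DHA.LPS.0. TMM factors moved the share of all calls that were higher from 22.3% to 46.6%. Ifih1 was 2.66-fold higher (interval 2.29 to 3.08), and Trim25 and Zc3hav1 were each 1.57-fold higher. Ddx58 had a ratio of 0.652 (0.575 to 0.737), Mavs one of 0.480 (0.389 to 0.589) and Dhx58, under the share limit, one of 0.298 (0.210 to 0.412). Eif2ak2 was level, with a ratio of 1.01 (0.962 to 1.06). Thus Ddx58, Dhx58 and Zbp1 had ratios above 1 for 4 h of LPS with vehicle and below 1 with DHA in the kept cells. With DHA the ratio of Zbp1 rested on 27 against 73 UMIs. In the barcodes that the filter removed, Zbp1 with DHA went the other way. There it was at 1.03 CPM (0.722 to 1.43) at 4 h and 0.331 CPM (0.159 to 0.608) without LPS. Each of the DHA.LPS.1 and DHA.LPS.4 comparisons shares the library DHA.LPS.0, and the vehicle comparisons share Veh.LPS.0 likewise.

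**Figure D2:**
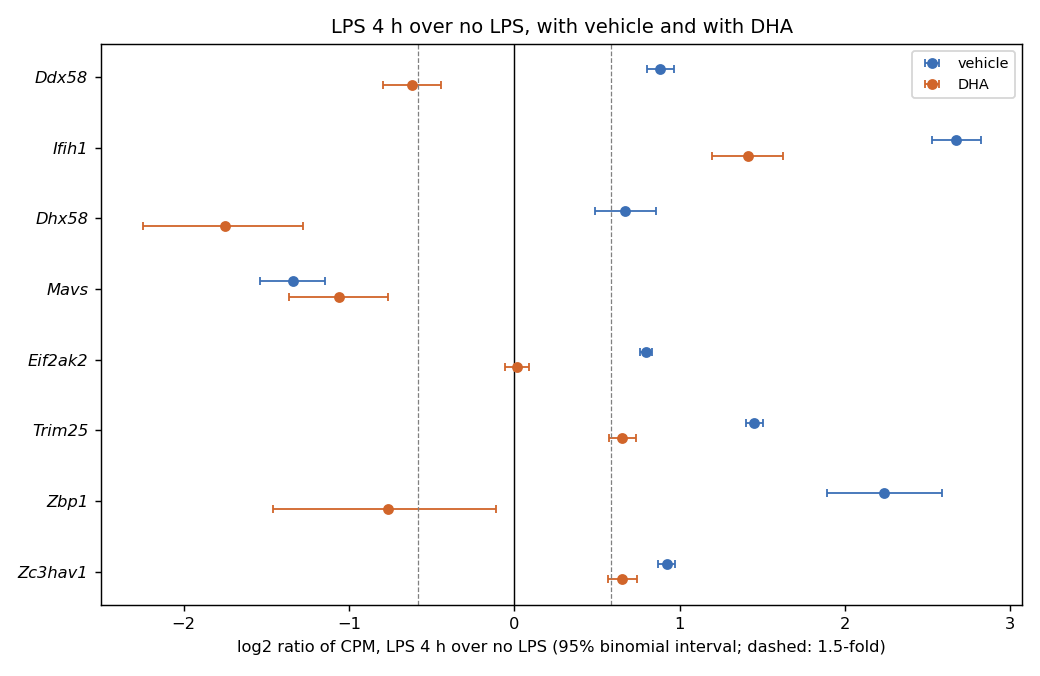
Log2 ratio of CPM after 4 h of LPS over no LPS for the 8 genes, with vehicle (blue) and with DHA (orange). Points are ratios of 2 libraries, bars are 95% exact binomial intervals of counting error, the solid line marks no difference and the dashed lines 1.5-fold. Ddx58, Dhx58 and Zbp1 lie right of 0 with vehicle and left of 0 with DHA, Ifih1, Trim25 and Zc3hav1 lie right of 0 with both, and Mavs lies left with both.

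Between DHA and Veh the sign of the difference turned between 1 and 4 h of LPS. Without LPS, 7 of the 8 genes had log2 ratios above 0, with a median of 0.27 where all 8434 tested genes had a median of -0.05. The higher values were those of Zbp1 at 1.12 (interval 0.66 to 1.57), Ifih1 at 0.75 (0.54 to 0.96), Dhx58 at 0.43 (0.20 to 0.66) and Trim25 at 0.41 (0.34 to 0.48). Mavs, Zc3hav1 and Eif2ak2 lay between -0.07 and 0.03. No gene passed both limits (0 higher, 0 lower), against 1.08% of all tested genes higher and 0.949% lower. Of those calls 53.2% were higher, and 69.6% with sctransform-corrected counts.

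At 1 h of LPS, 7 of the 8 genes were again above 0, with a median log2 ratio of 0.77 against -0.05 for 7794 tested genes. Ddx58 at 0.71 (interval 0.58 to 0.84) and Trim25 at 0.87 (0.81 to 0.93) were the 2 genes higher past the limits, and 0 were lower, where the background was 1.33% higher and 1.73% lower. Of those calls 43.5% were higher, and 54.0% with sctransform-corrected counts. Ifih1 at 0.83 and Dhx58 at 0.85 had similar ratios but were under the share limit, as was Zbp1 at 1.30. Zc3hav1 followed at 0.47 and Eif2ak2 at 0.33. The interval of Mavs, -0.32 to 0.09, included 0.

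At 4 h of LPS, 7 of the 8 genes were lower with DHA than with vehicle, and the median log2 ratio was -0.68 where 7672 tested genes had a median of 0.08. Dhx58 had the lowest ratio, 0.252 (interval 0.180 to 0.343), then Zbp1 at 0.271 (0.175 to 0.403), Ddx58 at 0.387 (0.346 to 0.432) and Eif2ak2 at 0.555 (0.532 to 0.579). Ifih1 at 0.701 (0.633 to 0.776), Trim25 at 0.763 (0.729 to 0.799) and Zc3hav1 at 0.847 (0.805 to 0.890) were within 1.5-fold. Past both limits, 3 genes were lower (Ddx58, Dhx58 and Eif2ak2) and 0 higher, against 2.42% of tested genes lower and 2.22% higher. Of all calls, 47.8% were higher with the library total, 26.8% with TMM factors and 16.4% with sctransform-corrected counts, and the 7 genes were lower on each scale. Mavs alone had a ratio above 1, 1.22, with an interval of 0.977 to 1.52 that includes 1.

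The filter on cells bears on these values, because it removed most barcodes of the DHA libraries and of Veh.LPS.4. In barcodes outside the mitochondrial limit alone, a set chosen after the data were seen, the 7 genes were also lower with DHA than with vehicle at 4 h, with log2 ratios from -2.51 for Dhx58 to -0.68 for Trim25. There, the log2 ratios at 1 h ran from 0.07 for Mavs to 0.86 for Ddx58. Over all removed barcodes, those with few UMIs included, the DHA level at 1 h was the lower one for Mavs (3.46 against 6.15 CPM), Eif2ak2 (52.7 against 60.2 CPM) and Zbp1 (0.333 against 0.397 CPM, with overlapping intervals). Without LPS the difference was not kept for Zbp1, at -0.30 outside the mitochondrial limit alone against 1.12 in the kept cells. Over all removed barcodes Zbp1 had 0.331 CPM with DHA and 0.329 CPM with vehicle, on 10 and 5 UMIs. Ifih1 there had 2.81 CPM with DHA (interval 2.24 to 3.48) and 2.57 CPM with vehicle (1.82 to 3.51), which overlap. Dhx58 (4.20 against 2.50 CPM) and Trim25 (48.5 against 41.9 CPM) were higher with DHA there, and their intervals did not overlap. Without any filter on barcodes the median of all tested genes shifted to -0.25 without LPS, -0.31 at 1 h and -0.18 at 4 h. On that scale 4 of the 8 genes were above 0 without LPS (Ifih1, Dhx58, Trim25 and Zbp1), Ddx58 was at -0.04 and Eif2ak2 at -0.33, and at 1 h Eif2ak2 was at -0.04 and Mavs at -0.51. Mavs at 4 h was at -0.14, and the other 7 genes were below the shifted median. How far the mitochondrial share moves with these levels was not tested.

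**Figure D3:**
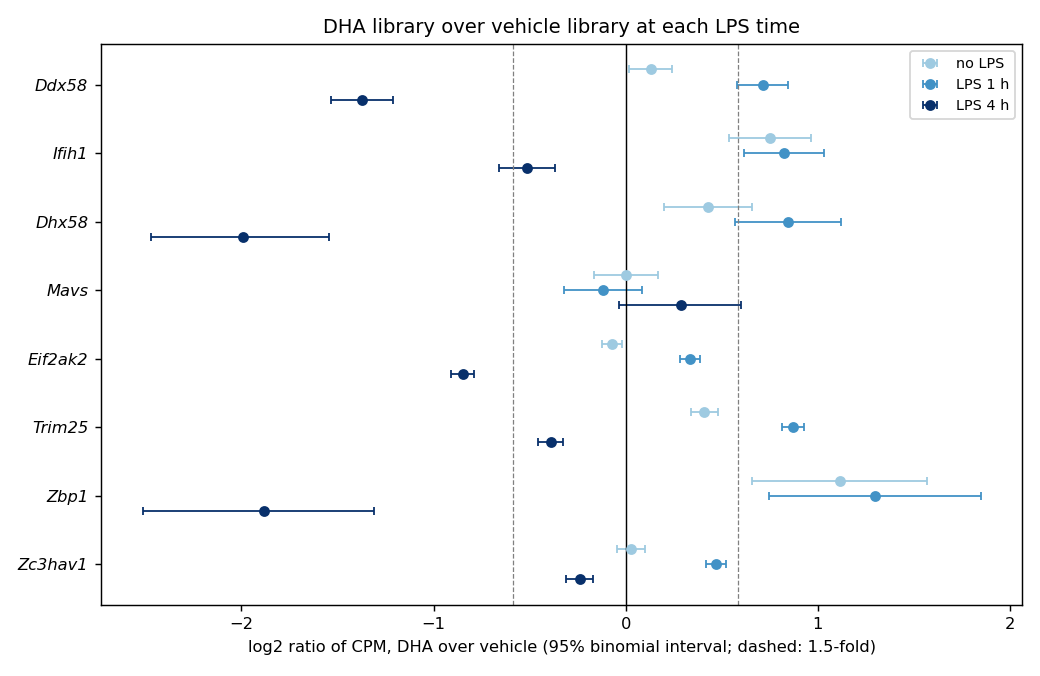
Log2 ratio of CPM in the DHA library over the vehicle library without LPS and after 1 and 4 h of LPS (light to dark blue) for the 8 genes. Points are ratios of 2 libraries, bars 95% exact binomial intervals of counting error, and dashed lines 1.5-fold. For 7 genes the 4 h point lies left of 0 and the 1 h point right of it, while the intervals of the 3 points of Mavs include 0.

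Depth per cell differed between the libraries, so shares of cells with a UMI were compared after each cell was thinned to 20000 UMIs, which all kept cells exceed. At this depth Ddx58 was found in 47.3% of the Veh.LPS.4 cells (interval 44.2 to 50.5) against 20.8% in DHA.LPS.4 (17.8 to 24.0), where the shares before thinning were 70.5% and 29.3%. Ifih1 was found in 27.9% (25.1 to 30.8) and 20.9% (18.0 to 24.2), and Dhx58 in 14.0% (11.9 to 16.3) and 4.05% (2.70 to 5.80). The shares of all 3 receptors were lower with DHA, as their CPM were. For Mavs the thinned shares were 8.26% with vehicle and 10.1% with DHA, with overlapping intervals, whereas the shares before thinning, 22.3% and 15.0%, were in the opposite order.

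At least 1 of the 3 receptor transcripts was detected in 16.9% of Con cells, 44.6% of Veh.LPS.0 cells and 47.0% of DHA.LPS.0 cells. The share was 30.5% in Veh.LPS.1 and 41.9% in DHA.LPS.1, and 62.2% in Veh.LPS.4 (interval 59.1 to 65.3) and 37.4% in DHA.LPS.4 (33.8 to 41.2). All 3 together were found in 40 cells of Veh.LPS.4 (4.03%) and in 4 of DHA.LPS.4 (0.578%). Of the 8 genes, a cell had a median of 4 detected in Veh.LPS.4, 3 in the other reduced-serum libraries and 2 in Con. At least 4 were detected in 53.9% of cells in Veh.LPS.4 but 28.2% with DHA at 4 h, the latter close to the 28.2% of Veh.LPS.0.

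**Figure D4:**
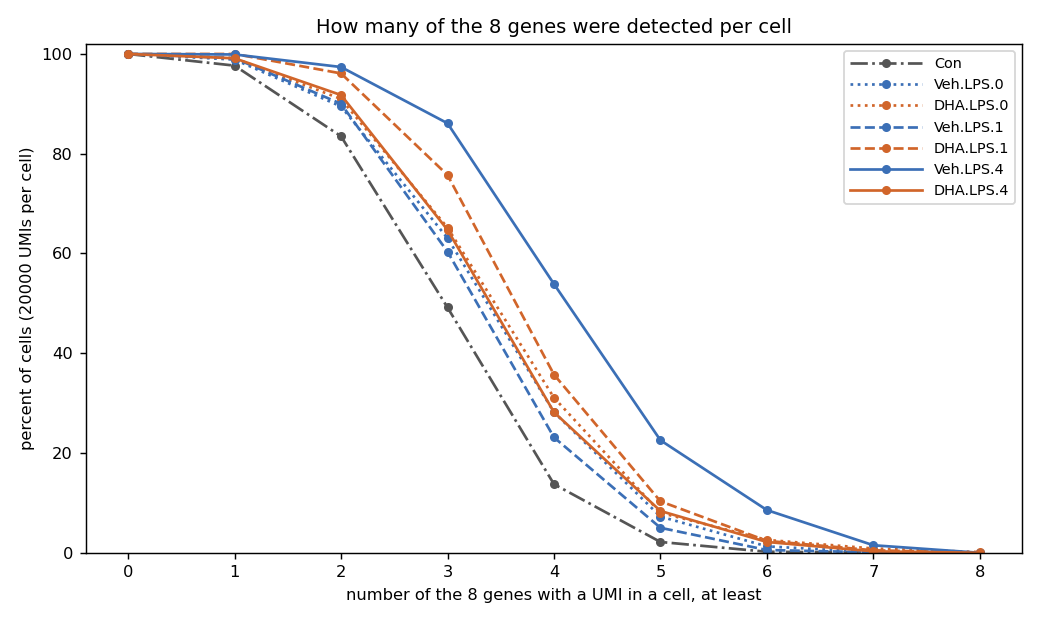
Percent of cells (vertical axis) in which at least a given number of the 8 genes (horizontal axis) had a UMI, each cell thinned to 20000 UMIs. Each line is 1 library (grey Con, blue vehicle, orange DHA; dotted no LPS, dashed LPS 1 h, solid LPS 4 h, Con dash-dotted). From 2 to 7 genes the Veh.LPS.4 line lies highest, with 53.9% of cells at 4 or more genes, and the Con line lowest, with 13.8%.

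The spread of single genes over the cells of a library was described next. In Veh.LPS.4 the variance of Ifih1 over cells at equal depth was 4.45 times its mean, with up to 20 UMIs in a cell. The same ratio was 3.14 for Eif2ak2, 1.88 for Ddx58 and 1.03 for Mavs. This ratio also depends on the mean of a gene, so it does not rank the genes by evenness. The means at equal depth were 4.27 UMIs per cell for Eif2ak2, 0.905 for Ddx58, 0.634 for Ifih1 and 0.0876 for Mavs. The 1% of cells with the most Ifih1 UMIs held 19.7% of its UMIs in Veh.LPS.4 and between 24.3% and 39.7% in the other 6 libraries, with the highest share in Con. That share is higher where a gene has fewer UMIs in all and was not compared between genes. Without the 1% of cells with the highest share of interferon-list UMIs (an alternative added after the data were seen), the log2 ratio of Ifih1 between DHA.LPS.0 and Veh.LPS.0 was 0.60 in place of 0.75, and that of Zbp1 1.21 in place of 1.12.

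Cells were next split within each library by the UMIs of a list of 24 interferon-stimulated genes that holds none of the 8 genes, at the 75th percentile and at equal depth. The 24 genes had a median of 9 UMIs per cell in Veh.LPS.4, 3 in DHA.LPS.4 and in DHA.LPS.0, 2 in Veh.LPS.0 and 1 in Con. In Veh.LPS.4, 246 cells had more than 17 such UMIs and 747 did not. Zbp1 was 15.4-fold higher in the former (16.5 against 1.07 CPM, interval 8.92 to 28.2), Dhx58 5.03-fold (3.65 to 6.97), Ifih1 4.29-fold (3.65 to 5.05) and Ddx58 3.25-fold (2.85 to 3.72). Eif2ak2 was 2.11-fold higher, Trim25 1.45-fold and Zc3hav1 1.25-fold, and the interval of Mavs, 0.737 to 1.98, included 1.

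In DHA.LPS.4 the limit was 6.25 UMIs, with 173 cells above and 519 not above it. The split gave 10.5-fold for Zbp1 (on 14 and 4 UMIs, interval 3.30 to 43.8), 5.72-fold for Ifih1 (4.50 to 7.30), 4.50-fold for Dhx58 and 3.73-fold for Ddx58 (2.84 to 4.91). Zc3hav1 was 1.65-fold higher (1.47 to 1.85), and its interval did not overlap that in Veh.LPS.4. Before LPS with vehicle, where the limit was 4 UMIs, the ratios were 10.6 for Zbp1, 2.69 for Ifih1, 1.98 for Dhx58, 1.82 for Ddx58 and 1.02 for Zc3hav1. Before LPS with DHA, where it was 5 UMIs, they were 13.45 for Zbp1, 5.01 for Ifih1, 3.64 for Dhx58 and 2.18 for Ddx58. Zc3hav1 was there at 1.53 (1.31 to 1.78), which overlaps its interval in DHA.LPS.4. The cells of a library are not replicates, so these ratios describe the libraries and carry no test.

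**Figure D5:**
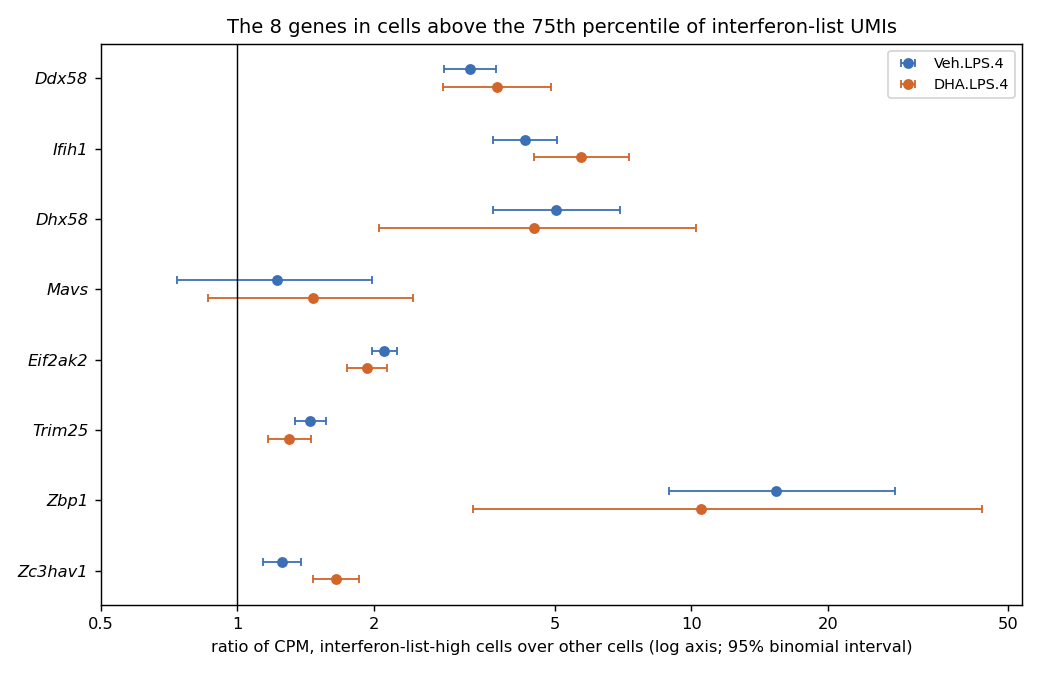
Ratio of CPM (log axis) between cells above and not above the 75th percentile of interferon-list UMIs of their library, for the 8 genes in Veh.LPS.4 (blue, 246 and 747 cells) and DHA.LPS.4 (orange, 173 and 519 cells), each cell thinned to 20000 UMIs. Bars are 95% exact binomial intervals of counting error. Zbp1 has the highest ratios, 15.4 and 10.5, and the intervals of Mavs include 1 in both libraries.

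Genes listed for signalling around MAVS were counted next, regulators, adapters of other routes and Ifnb1 included. Of 19 such genes, 16 passed the share limit at 4 h of LPS, 0 were higher with DHA and 1, Irf7, was lower, at a log2 ratio of -1.53, against 2.22% and 2.42% of all tested genes. The median of the 16 was 0.14, where that of all tested genes was 0.08. Irf7, the interferon-inducible transcription factor of the list, was at 32.6 CPM in Veh.LPS.4, against 8.47 CPM without LPS and 11.3 CPM with DHA and LPS. For 4 h of LPS with vehicle, 4 of 17 were higher, among them Irf7 at 1.94 and the kinase gene Ikbke at 1.70, against 10.2% of all tested genes. The 5 lower ones, among them the death-domain adapter gene Fadd at -1.25, were a smaller share than the 38.3% of all tested genes. The interferon gene Ifnb1, named after its values were seen, was at 3.36 CPM with vehicle and 0.499 CPM with DHA at 4 h and under the share limit in both.

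Of 17 genes for regulators and cofactors of RIG-I, MDA5 and MAVS, 13 passed the share limit and 0 differed past 1.5-fold in either direction between DHA.LPS.4 and Veh.LPS.4. Over all tested genes 2.22% were higher and 2.42% lower, so 0 of 13 is close to those shares. With 4 h of LPS and vehicle, 3 of 14 were lower and 0 higher, which is below the shares over all tested genes (38.3% lower and 10.2% higher). The 3 were the deubiquitinase gene Cyld at -1.55, Nlrx1 at -0.99, whose product is a mitochondrial protein, and the autophagy gene Atg5 at -0.61. Among 9 genes of endosomal RNA sensing, 7 passed and 0 differed between DHA and Veh at 4 h, with a median of -0.19. This count is likewise close to the 2.22% and 2.42% of all tested genes. With LPS and vehicle at 4 h, 1 of 7 was higher, the adapter gene Myd88 at 0.65, and 1 lower, the kinase gene Irak4 at -1.10, against the same 10.2% and 38.3%.

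The OAS genes, whose products form a parallel RNA-sensing route, had 7 members in the files. At 4 h of LPS 5 passed the share limit, and these 5 were lower with DHA than with vehicle (Oas1a, Oas1g, Oas2, Oas3 and Oasl1), against 2.42% of all tested genes. At 1 h 4 passed, and 3 were higher with DHA (Oas1a, Oas1g and Oasl1) and 0 lower, against 1.33% and 1.73% of all tested genes. Oas2, which makes the second messenger 2-5A, was at 20.2 CPM in Veh.LPS.4, against 4.06 CPM without LPS and 8.71 CPM with DHA and LPS. Oasl1 was at 151 CPM in Veh.LPS.4, 7.44 CPM before LPS and 93.6 CPM with DHA and LPS.

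Around PKR, 11 of 12 listed genes passed the share limit at 4 h and 1 was lower with DHA, against 2.42% of all tested genes. It was Adar, the RNA-editing enzyme that limits PKR activation, at a log2 ratio of -0.69. With 4 h of LPS and vehicle, 4 of 11 were higher, against 10.2% of all tested genes, among them the eIF2α phosphatase subunit gene Ppp1r15a at 1.70 and Atf4 at 1.44. The 2 lower ones, among them the PKR activator gene Prkra at -1.82, were a smaller share than the 38.3% of all tested genes. Around ZBP1, 0 of 5 tested necroptosis and apoptosis genes differed between DHA and Veh at 4 h, close to the 2.22% higher and 2.42% lower over all tested genes. With LPS and vehicle, 1 of 7 was higher, Cflar at 1.57, which encodes the caspase-8 regulator c-FLIP, and 2 were lower, Casp6 at -1.72 and Fadd, against 10.2% higher and 38.3% lower over all tested genes.

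Around ZAP, 5 of 13 tested genes were lower with DHA than with vehicle at 4 h and 0 higher, against 2.42% and 2.22% of all tested genes, with a median of 0.00. The 5 were genes of ADP-ribosyltransferases and a partner, with Dtx3l at -1.23, Parp14 at -1.10 and Parp9 at -0.89, while the 3 exosome genes were within 1.5-fold, at 0.00 to 0.24. Among genes of type I interferon receptor signalling, the transcription factor genes Stat2 and Irf9 were lower past the limits, at -1.44 and -0.89, and the receptor and kinase genes had log2 ratios of 0.20 to 0.30. In the interferon-response list itself, 12 of 13 tested genes were lower and 0 higher, with a median of -1.15. The shares over all tested genes were 2.42% lower and 2.22% higher. This list shares Irf7 and Oasl1 with the lists above.

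The genes whose log2(CPM + 1) over the 7 libraries was most like that of each sensor are given by Pearson's r, as a description over 7 points that share depth and treatment. Among 8759 candidates, Ddx58 was most like Oas1g (r = 0.98), Oas1a (0.98) and Parp9 (0.97). Dhx58 was most like Sp100 (0.99), Anxa1 (0.98) and Vipas39 (0.96), and Ifih1 most like Apbb2 (1.00), Ifi211 (0.99) and Cd40 (0.99). Eif2ak2 was most like Igtp (0.98), Adar (0.97) and Ifi47 (0.96). Zbp1 was most like Rtp4 (0.96), Vcpip1 (0.95) and Zufsp (0.95), and Trim25 like C3ar1 (0.97), Oasl1 (0.96) and Atp9b (0.95). Mavs was most like Actr8 (1.00), Nlrx1 (1.00) and Acvr2b (1.00), and Zc3hav1 like Fbxo28 (0.97), Sesn2 (0.97) and Rsrp1 (0.97).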

How the data were processed

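Per the labels and the file headers, the authors aligned 10x Genomics 3′ single-cell reads to mm10 with Cell Ranger and deposited, for each of 7 libraries, raw counts of UMIs per gene and called cell barcode, with no normalization or filter on cells. The headers give Cell Ranger 3.1.0, the study's methods another release, and use of strand in counting is not given in the sources used here. Each library is 1 sample, mapped to its condition by its labels.

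Barcodes with over 20000 UMIs, at least 2000 genes and under 20% of UMIs from mt- genes were kept, the limits of the study's methods. UMIs were summed per gene and library with Python 3.11.15, numpy 2.4.6, pandas 2.3.3 and scipy 1.17.1 and scaled to CPM. CPM have exact Poisson intervals, and shares and ratios exact Clopper-Pearson binomial intervals, at 95%. Without replicates, genes were called by size only. The calculation was run on simulated Poisson counts with known changes. Those counts hold no variation between cells or between libraries, so they cannot show whether a call would recur in another library. Cells were thinned without replacement to 20000 UMIs (seed 1). No doublet caller was run; an alternative dropped cells above the 95th percentile of UMIs. Other alternatives were no filter, other UMI, mitochondrial, fold and share limits, TMM factors (edgeR 4.0.16), totals without mt- genes, means of per-cell CPM, sctransform 0.4.2 (R 4.3.3) and omission of shared barcodes. Beyond the 8 genes, list genes were named by a rule: up to 3 per list with the largest log2 ratios at 4 h among those past the limits, and the 3 most similar genes per member. The 8 genes and the lists were chosen with earlier results of these data known. Gene positions are from RefSeq's GRCm38.p6 table. Some listed genes are not reported here.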

Additional observations from a re-analysis of the deposited data

Results flagged for a closer look

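Several ratios pointed in opposite directions between treatments or LPS times. With 1 library per condition, none of these differences was tested. The log2 ratio of 4 h of LPS over no LPS was 0.88 with vehicle and -0.62 with DHA for Ddx58, 0.67 and -1.75 for Dhx58, and 2.23 and -0.77 for Zbp1. These values are for the kept cells, and in the barcodes that the filter removed Zbp1 with DHA was higher at 4 h. For Eif2ak2 the ratio of 1 h of LPS over no LPS was -0.26 with vehicle and 0.14 with DHA.

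The log2 ratio of DHA over vehicle was 0.71 at 1 h of LPS and -1.37 at 4 h for Ddx58, 0.83 and -0.51 for Ifih1, 0.85 and -1.99 for Dhx58, 0.33 and -0.85 for Eif2ak2, 0.87 and -0.39 for Trim25, 1.30 and -1.88 for Zbp1, and 0.47 and -0.24 for Zc3hav1. Without LPS it was 0.03 for Zc3hav1 and above 0 for 5 more of these genes, at 0.13 for Ddx58, 0.75 for Ifih1, 0.43 for Dhx58, 0.41 for Trim25 and 1.12 for Zbp1. For Eif2ak2 it was -0.070 without LPS and 0.33 at 1 h.

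The barcodes that the filter removed also held UMIs of the 8 genes. With vehicle their summed level there was 174 CPM before LPS, 224 CPM at 1 h and 449 CPM at 4 h. With DHA it was 177 CPM before LPS, 280 CPM at 1 h and 235 CPM at 4 h, so both LPS times were above the library without LPS. The kept cells had higher sums in each of these libraries.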

How the results depend on the processing

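No paired analysis was possible because each condition had 1 library, and for the same reason no library could be left out. Of 252 counts of genes past the limits under the alternatives, 221 stayed within 1.5 times the reported count and 31 moved. With sctransform-corrected counts, whose pseudocount of 1 shrinks ratios of low genes by construction, the count was 0 higher for Veh.LPS.0 over Con, 0 higher and 0 lower for Veh.LPS.1 over Veh.LPS.0, 0 lower for Veh.LPS.4 over Veh.LPS.0, 0 higher and 0 lower for DHA.LPS.4 over DHA.LPS.0 and 1 higher for DHA.LPS.1 over Veh.LPS.1. With no limit on the share of cells it was 4 higher for Veh.LPS.0 over Con, 2 lower for Veh.LPS.1 over Veh.LPS.0, 1 lower for Veh.LPS.4 over Veh.LPS.1, 4 lower for DHA.LPS.4 over DHA.LPS.0, 2 higher for DHA.LPS.0 over Veh.LPS.0 and 5 higher for DHA.LPS.1 over Veh.LPS.1. A 2-fold limit gave 0 higher and 0 lower for Veh.LPS.1 over Veh.LPS.0, 2 higher for Veh.LPS.4 over Veh.LPS.0, 1 higher for DHA.LPS.1 over DHA.LPS.0, 1 higher and 1 lower for DHA.LPS.4 over DHA.LPS.0 and 0 higher for DHA.LPS.1 over Veh.LPS.1. In barcodes outside the mitochondrial limit alone there were 2 higher and 0 lower for Veh.LPS.1 over Veh.LPS.0, 0 lower for Veh.LPS.4 over Veh.LPS.0, 3 higher for Veh.LPS.4 over Veh.LPS.1, 0 lower for DHA.LPS.4 over DHA.LPS.0 and 1 higher for DHA.LPS.1 over Veh.LPS.1. With no filter on barcodes there were 0 lower for Veh.LPS.4 over Veh.LPS.0, 0 lower for DHA.LPS.4 over DHA.LPS.0 and 1 higher for DHA.LPS.1 over Veh.LPS.1. With TMM factors 1 was lower for DHA.LPS.4 over DHA.LPS.0, and with under 10% mt- UMIs 1 was lower for DHA.LPS.1 over DHA.LPS.0. The calls over all tested genes also changed with the setting, so these counts alone do not set the described genes apart from other genes. For Veh.LPS.0 over Con, 768 genes were higher with the reported limits, 163 with sctransform-corrected counts, 4174 with no share limit and 278 with the 2-fold limit. For DHA.LPS.1 over Veh.LPS.1 the higher calls were 104, 27, 1906 and 24 in the same order.

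For DHA.LPS.4 over Veh.LPS.4 the count of 3 lower genes ranged from 2 to 4, with 0 higher. It was 2 with sctransform-corrected counts, where Dhx58 was at -0.39 and no longer past the limit, and 2 with the 2-fold limit, which Eif2ak2 at -0.85 did not pass. The 7 lower genes kept their sign under all 12 alternatives that recompute ratios. Without a filter on barcodes, 33.9% of all calls in that comparison were higher, 23.8% for DHA over vehicle without LPS and 18.4% at 1 h. The alternatives with the barcodes outside the mitochondrial limit, with an 80% limit and without cells with many interferon-list UMIs were chosen after seeing the data. Counting error limits Zbp1 and Dhx58 most, on 27 and 44 UMIs in DHA.LPS.4.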
